A study of Homo sapiens with 12 samples.

Results

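T24 human bladder cancer (BLCA) cells in which YY1 was knocked down were compared with T24 cells in which SQLE was knocked down, without the control siRNA. T24 is an established line of transitional cell carcinoma of the bladder. All columns carrying these labels were taken, so 6 of the 12 libraries of the series entered the comparison. The siYY1 group held 3 libraries of cells transfected with siRNA against YY1, and the siSQLE group held 3 libraries of cells transfected with siRNA against SQLE. The groups shared the cell line, the transfection and the library kit, and carried no other allele or agent according to the labels. The submitters described 3 independent experiments per group. The time from transfection to harvest and the number of siRNAs against each target are not given in the sources used here. The other libraries were siNC (negative control siRNA, 3 libraries), whose mean levels stand beside named genes as values without a test, and siFDPS (3 libraries), which entered an alternative fit. A gene that was higher after YY1 knockdown is by construction lower after SQLE knockdown, and this contrast alone does not say which knockdown moved it.

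YY1 is a zinc finger transcription factor that binds a short ATGG-containing motif and can activate or repress genes, together with partners such as the INO80 remodelling complex, Polycomb proteins, HCFC1 and BAP1. SQLE (squalene epoxidase) introduces an oxygen into squalene, an early step of the branch that leads to cholesterol, past farnesyl diphosphate, which also feeds protein prenylation. Sterol shortage in the endoplasmic reticulum releases SREBP2, a membrane-bound transcription factor that raises the genes of this pathway, so SQLE and its neighbours are usually regulated together.

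Each library held 53045016 to 62168745 counts. Values below are in CPM, the counts of a gene relative to the total of its library, scaled by the trimmed mean of M-values (TMM), and values of a group are given in the order of replicates 1, 2 and 3. Log2 CPM correlated at 0.982 to 0.986 between libraries of one group and at 0.955 to 0.959 between groups, as a description across tested genes. The siSQLE 2 library stood apart from its group on the second principal component. The p-values measure the spread between these libraries. In bulk RNA, fewer cells of a kind and less RNA per cell cannot be told apart. Of 14 markers of blood, endothelial and fibroblast cells, 4 were expressed enough to be tested and 3 of these were lower in siYY1 cells. Without siSQLE 1 the filter of low counts was applied anew, and 5 of the 14 markers were then lower. CDH5, an endothelial cadherin, was at 3.96, 5.34 and 4.37 CPM in siSQLE and at 0.050, 0.154 and 0.034 CPM in siYY1 libraries, and CD14 and PDGFRB were at most 13.2 CPM in any of the 6 libraries.

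Both targeted genes were low in their own group. YY1 (chr14:100238298-100282792, plus strand, GRCh38) was at 153, 142.6 and 156 CPM in siSQLE and at 24, 24.9 and 23.7 CPM in siYY1 libraries. Every siYY1 library lay below every siSQLE library, 6.29-fold lower on average (log2 fold change -2.65, SE 0.06, adjusted p = 6.22e-06, edgeR quasi-likelihood test with Benjamini-Hochberg adjustment over 18979 genes, as for every adjusted p below). SQLE (chr8:124998497-125022283, plus strand) was at 31.3, 33.4 and 30.2 CPM in siSQLE and at 153, 148 and 141 CPM in siYY1 libraries, a log2 fold change of 2.20 (SE 0.07, adjusted p = 8.29e-06) with no overlap. The siNC mean was 142.5 CPM for YY1 and 116 CPM for SQLE, and the mean of the untargeted group was above it for both, at 150.5 CPM for YY1 in siSQLE and 147 CPM for SQLE in siYY1 cells. FDPS, which makes farnesyl diphosphate, was targeted in neither group, and it was at 159, 170.1 and 161 CPM in siSQLE and at 134, 137.5 and 136 CPM in siYY1 libraries (log2 fold change -0.28, adjusted p = 0.00403), both above the siNC mean of 87.0 CPM.

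The change of each target was carried by its main transcript. YY1 transcript ENST00000262238 held 9034, 7644 and 7665 counts in siSQLE and 1251, 1244 and 1201 counts in siYY1 libraries. A second YY1 transcript, ENST00000623799, held 128, 99 and 134 counts against 171, 194 and 173 counts and did not pass the test (adjusted p = 0.33 over transcripts, edgeR). ENST00000554804 held 554 counts in siSQLE 3 and 0 in the other 5 libraries, and the remaining YY1 transcripts held at most 29 counts in any library. SQLE transcript ENST00000265896 held 1771, 1711 and 1546 counts in siSQLE and 9054, 8540 and 8177 counts in siYY1 libraries, whereas the other SQLE transcripts held at most 54 counts in any of these libraries.

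Across all genes, 9194 of the 18979 tested genes were differentially expressed genes (DEGs) at an adjusted p below 0.05, which is 48.4% in either direction. Of these, 4578 were higher in siYY1 cells (24.1%) and 4616 were lower (24.3%). The 2 groups did not overlap for 59.7% of tested genes. Because called genes are this common, the counts of each gene list below are read against these shares. Among protein-coding genes the share called was higher, at 56.3%, so lists of such genes are to be read against that share too. Larger changes leaned toward lower levels in siYY1 cells, since 1213 DEGs were at least 2-fold higher and 2044 at least 2-fold lower, and 152 were at least 4-fold higher and 494 at least 4-fold lower. Long non-coding genes leaned the same way. Of 993 tested lincRNA genes, 96 were higher and 262 lower, against 4025 higher and 3725 lower among 13765 protein-coding genes.

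Among well expressed protein-coding DEGs, the largest rises were in genes of different function. CCNE1, the cyclin that drives entry into S phase with CDK2, was at 3.88, 3.96 and 4.26 CPM in siSQLE and at 24.1, 26.7 and 26.7 CPM in siYY1 libraries (log2 fold change 2.66, SE 0.09, adjusted p = 8.83e-06). AREG, a ligand of the EGF receptor, was at 2.65, 3.04 and 2.79 CPM against 15.02, 15.5 and 17.0 CPM (2.47, adjusted p = 1.51e-05). In both genes the siNC mean, 4.80 and 2.34 CPM, was close to the siSQLE libraries. COX7A2L, which assembles respiratory supercomplexes, was at 11.4, 12.7 and 6.90 CPM in siSQLE and at 75.9, 80.3 and 73.0 CPM in siYY1 libraries, and its siNC mean of 93.2 CPM was close to the siYY1 level instead. CMTM4, a membrane protein that stabilises PD-L1, showed the same arrangement with 8.79, 17.7 and 18.3 CPM in siSQLE, 89.4, 87.7 and 85.9 CPM in siYY1 and a siNC mean of 78.5 CPM. SH3BGRL2 (log2 fold change 2.54) and AASDHPPT (2.46), which attaches the phosphopantetheine arm to carrier proteins, also had siNC means nearer to siYY1, at 13.1 and 72.6 CPM. The zinc finger gene ZNF492 (3.41) and GAREM2 (2.54) had siNC means of 1.28 and 1.74 CPM, near to siSQLE. OVCA2 (2.62) lies on the same strand as DPH1, so its counts are uncertain. PIK3R2 (2.73, adjusted p = 0.0475) rested on siYY1 1 with 32.9 CPM, since siYY1 2 and 3 were at 3.79 and 3.49 CPM. Its log2 fold change was 0.86 without that library (adjusted p = 0.0317), and it lost the call without siSQLE 1, 2 or 3 (adjusted p 0.103 to 0.127).

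The largest falls reached further from 0. TP53INP2, an autophagy and transcription cofactor, was at 13.9, 14.3 and 13.1 CPM in siSQLE and at 0.733, 0.615 and 0.256 CPM in siYY1 libraries, 25.9-fold lower (log2 fold change -4.70, SE 0.34, adjusted p = 7.32e-05). ARL6IP1, which shapes the endoplasmic reticulum, was at 546, 519 and 473 CPM in siSQLE and at 56.6, 55.9 and 56.0 CPM in siYY1 libraries (-3.21, adjusted p = 6.22e-06). Both had siNC means nearer to siSQLE, at 17.2 and 381 CPM, as did the lysosomal cathepsin gene CTSO (-3.35, siNC mean 16.2 CPM), FAM49A (-3.43, 19.7 CPM) and LRCH2 (-3.15, 32.1 CPM). MINDY2, a deubiquitinase, was at 74.9, 79.2 and 70.4 CPM in siSQLE and at 2.87, 4.65 and 5.28 CPM in siYY1 libraries (-4.15, adjusted p = 3.09e-05), but here the siNC mean of 7.86 CPM was near to siYY1. The proteoglycan gene CSPG4 followed MINDY2, at 62.6, 41.9 and 66.3 CPM against 3.15, 3.96 and 3.14 CPM with a siNC mean of 8.78 CPM (-4.08). SIGLEC15 fell by 3.201 on the log2 scale. Values of ARPC5, an actin nucleation subunit, spread widely in siSQLE, at 347, 428 and 92.1 CPM against 26.03, 18.4 and 59.1 CPM (-3.08, adjusted p = 0.00906, and -3.70 without siYY1 3). The readthrough gene BIVM-ERCC5 shares its strand with BIVM and ERCC5 and was at 0.400, 73.4 and 46.7 CPM in siSQLE against 0.050, 0.034 and 0.068 CPM in siYY1, so its fall is uncertain. Of the other genes named here and below, ARL6IP1, NDUFA9, POLD3, RRM2, TAP2, PSMB10, CXCL6, REL, SOD2, PYCR1, RCE1, CYP51A1 and ASNS also share their strand with another annotated gene, and ZNF492, HLA-E and CXCL1 have close paralogues, so their counts could have been split by the counting. ARPC5, PIK3R2 and B2M differed many-fold between libraries of one group, and the part of the counting of shared reads in this was not tested.

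Of the 25 gene lists examined, DNA replication had the largest share of higher genes. Origin licensing loads the MCM helicase before S phase, and GINS and CDC45 then activate it for the polymerases and the PCNA clamp. Of 48 tested genes, 45 were higher in siYY1 cells and 1 was lower, with a median log2 fold change of 1.10 against -0.02 over all tested genes. Origin licensing and helicase genes had 22 of 23 higher (median 1.27), and polymerase, clamp and nucleotide genes had 23 of 25 higher (median 0.96). GINS2 was at 16.5, 16.4 and 17.2 CPM in siSQLE and at 66.3, 65.9 and 65.5 CPM in siYY1 libraries, a log2 fold change of 1.96 (SE 0.06, adjusted p = 8.29e-06). GMNN, which encodes the licensing inhibitor geminin, was at 12.5, 12.1 and 12.4 CPM against 49.8, 49.1 and 50.2 CPM (2.00, SE 0.06, adjusted p = 8.29e-06). In both genes the 3 libraries of a group lay close together and no siYY1 library came near a siSQLE library. GINS1 (1.78), POLA1 (1.38), POLD3 (1.37) and the clamp loader gene RFC3 (1.56) rose with them. The siNC mean was nearer to siSQLE than to siYY1 for 44 of the 45 higher genes, against 71.5% of all higher DEGs. RRM2, a subunit of ribonucleotide reductase, was the lower gene, at 69.5, 76.2 and 136 CPM in siSQLE and 40.8, 40.3 and 38.3 CPM in siYY1 libraries (-1.25, adjusted p = 0.00578), with siSQLE 3 well above the other 2. The siNC mean of RRM2 was nearer to siYY1. ORC4 did not pass the test, at 51.9 to 55.5 CPM in siSQLE and 50.5 to 55.9 CPM in siYY1 libraries.

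The E2F factors that control these genes, and the cyclins before them, moved less evenly. Of 12 tested D and E cyclin and E2F genes, 8 were higher and 2 lower (median 0.56). E2F1, the activating E2F, was at 23.5, 19.1 and 19.2 CPM in siSQLE and at 64.4, 64.2 and 65.5 CPM in siYY1 libraries (log2 fold change 1.63, SE 0.10, adjusted p = 4.02e-05), with a siNC mean of 12.8 CPM. RBL1, which encodes the pocket protein p107, was at 35.3, 33.2 and 34.2 CPM against 96.4, 93.1 and 95.1 CPM (1.46), whereas RB1 (-0.69) and E2F3 (-0.43) were lower. Groups did not overlap for any of these 4 genes. CDK inhibitors, the brakes on the same step, went the other way, with 6 of 7 lower and none higher (median -0.78). CDKN1C (p57) was at 6.11, 8.28 and 12.7 CPM in siSQLE and at 1.98, 1.50 and 1.87 CPM in siYY1 libraries (-2.35, adjusted p = 0.000694), and both were far below the siNC mean of 71.7 CPM. CDKN2D (-1.46) and CDKN1A, or p21 (-0.68), fell as well, and CDKN1A was likewise below its siNC mean of 84.2 CPM in both groups. Targets of p53 were mixed, with 7 of 16 higher and 3 lower. BTG2, an antiproliferative p53 target, was at 0.733, 0.846 and 0.930 CPM against 5.88, 7.53 and 5.84 CPM (2.92, adjusted p = 4.03e-05).

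Promoters of 2 of the raised genes are shown because they hold letters that E2F factors are known to bind. They are RefSeq promoters (assembly GRCh38.p14, 250 bases before to 50 bases after the annotated start, 5′ to 3′ on the strand of the gene), and 11364 tested genes had one. Capitals mark TTTCCCGC or its reverse complement in GINS2 (chr16:85688905-85689204, minus strand) and TTTGGCGC in E2F1 (chr20:33686336-33686635, minus strand).
GINS2: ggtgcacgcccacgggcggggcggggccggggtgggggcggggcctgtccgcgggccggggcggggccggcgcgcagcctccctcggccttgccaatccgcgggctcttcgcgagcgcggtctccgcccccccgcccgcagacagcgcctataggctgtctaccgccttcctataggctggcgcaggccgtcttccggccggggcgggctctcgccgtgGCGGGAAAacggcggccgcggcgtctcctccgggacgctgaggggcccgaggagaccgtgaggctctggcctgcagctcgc
E2F1: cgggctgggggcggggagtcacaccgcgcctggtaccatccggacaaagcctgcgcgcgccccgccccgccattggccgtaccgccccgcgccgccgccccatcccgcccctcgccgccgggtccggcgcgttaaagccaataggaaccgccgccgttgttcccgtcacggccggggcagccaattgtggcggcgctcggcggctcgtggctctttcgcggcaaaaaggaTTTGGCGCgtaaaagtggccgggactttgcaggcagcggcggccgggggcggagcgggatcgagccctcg
Searched on both strands, TTTCCCGC stood in 10 of 41 promoters of DNA replication genes (24.4%) and in 2.51% of all 11364 promoters, and TTTGGCGC in 6 of 41 (14.6%) and in 1.06%. The first motif was in 3.37% of promoters of higher DEGs and in 1.73% of promoters of lower DEGs. Promoters of E2F3, SUZ12 and INSIG2, which were lower, hold it as well, and that of CCNE1, which rose, holds neither motif. A match of letters is a description and not a bound site.

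Mitosis genes rose less than replication genes. Of 50 tested genes, 39 were higher and 2 lower, with a median of 0.58, and the siNC mean was nearer to siSQLE for 38 of the 39 higher genes. MAD2L1, a spindle checkpoint protein, was at 23.2, 23.7 and 22.5 CPM in siSQLE and at 103, 103 and 96.4 CPM in siYY1 libraries (log2 fold change 2.10, SE 0.06, adjusted p = 8.24e-06). CENPF, a kinetochore protein, was at 139, 119.9 and 139.9 CPM against 430.3, 433 and 419.8 CPM (1.67, SE 0.07, adjusted p = 1.51e-05). For both genes the lowest siYY1 library was more than 2-fold above the highest siSQLE library. CCNA2 (cyclin A2, 1.36), ANLN (anillin, 1.32), CENPN (0.96) and TOP2A (topoisomerase II alpha, 0.71) were higher with smaller changes. CDC25B (-0.42) and HMMR (-0.52) were lower, with 238, 239 and 241 CPM against 176, 176 and 189 CPM for CDC25B. For both of these lower genes the siNC mean was nearer to siYY1. The cell cycle homology letters TTTGAA were in 28 of 42 promoters of mitosis genes (66.7%), in 2 of 41 promoters of replication genes (4.88%) and in 9.95% of all promoters. The median log2 fold change of the 42 mitosis genes was 0.58 with the letters and 0.67 without them, which was not tested. The promoter of HMMR, a lower gene, holds them too.

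Interferon response genes had the largest share of lower genes among the 25 lists. Type I interferon acts through factors that include STAT2 and IRF9 on a shared promoter element and raises sensors of viral RNA and antiviral effectors. Of 39 tested genes, 30 were lower in siYY1 cells and 1 was higher, with a median of -1.01, and the siNC mean was nearer to siSQLE for all 30 lower genes, against 66.9% of all lower DEGs. IFIT1, which binds foreign RNA, was at 71.3, 89.7 and 72.0 CPM in siSQLE and at 21.3, 21.1 and 23.7 CPM in siYY1 libraries (log2 fold change -1.83, SE 0.11, adjusted p = 4.24e-05), with a siNC mean of 91.9 CPM. IFIT3 was at 148, 160.4 and 139 CPM against 52.8, 51.7 and 55.1 CPM (-1.50, SE 0.07, adjusted p = 1.96e-05), and the helicase DDX60 was at 40.6, 44.0 and 38.6 CPM against 15.03, 16.1 and 15.9 CPM (-1.40). Each of these genes was lower in every siYY1 library than in any siSQLE library. Sensors and factors had 9 of 10 lower and none higher (median -0.76), among them IRF7, which amplifies interferon production (5.86, 6.84 and 7.63 CPM against 1.38, 1.59 and 2.01 CPM, -2.04), the RNA sensor RIG-I (DDX58, -1.01) and STAT2 (-1.15). EIF2AK2, the kinase PKR, was the higher gene, at 160.0, 138 and 144 CPM in siSQLE against 229, 240.2 and 254 CPM in siYY1 libraries (0.70, adjusted p = 0.000422). The siNC mean of EIF2AK2 was nearer to siYY1.

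The interferon-stimulated response element is shown in promoters of 2 of these genes, where capitals mark GAAA and GAAA with any 2 bases between them, or the reverse complement. IFIT1 lies at chr10:89392373-89392672 on the plus strand and DDX60 at chr4:168318703-168319002 on the minus strand, and each holds a pair of matches.
IFIT1: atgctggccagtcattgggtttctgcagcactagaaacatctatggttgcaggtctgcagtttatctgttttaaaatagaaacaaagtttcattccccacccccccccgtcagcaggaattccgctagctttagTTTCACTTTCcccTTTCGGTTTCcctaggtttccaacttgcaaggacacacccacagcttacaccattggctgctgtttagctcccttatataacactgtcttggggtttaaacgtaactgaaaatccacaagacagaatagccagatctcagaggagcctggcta
DDX60: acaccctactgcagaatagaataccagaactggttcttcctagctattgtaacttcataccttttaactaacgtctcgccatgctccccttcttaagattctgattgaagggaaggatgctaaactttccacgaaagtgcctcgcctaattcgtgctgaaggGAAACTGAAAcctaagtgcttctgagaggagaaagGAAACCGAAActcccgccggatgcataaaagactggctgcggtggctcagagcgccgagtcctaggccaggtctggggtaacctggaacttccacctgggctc
The element was in 20 of 28 promoters of interferon response genes (71.4%) and in 2.97% of all promoters. It was in 5.07% of promoters of genes at least 2-fold lower, a set that includes IFIT1 and DDX60 themselves. The median log2 fold change of the 28 genes was -1.09 with the element and -1.19 without it, and EIF2AK2, the higher gene, holds it too. These differences between promoters were not tested.

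MHC class I presentation genes had 8 of 15 lower and 2 higher (median -0.47). HLA-E, a heavy chain, was at 271.5, 281.5 and 286 CPM in siSQLE and at 236, 231 and 235 CPM in siYY1 libraries (log2 fold change -0.27, adjusted p = 0.003), below the siNC mean of 345.5 CPM in both groups. The immunoproteasome gene PSMB10 (-0.70) was lower, and the peptide transporter gene TAP2 (0.49) and the trimming peptidase gene ERAP1 (0.32) were higher. B2M, the light chain shared by all class I molecules, did not pass the test (-0.81, adjusted p = 0.43), since siYY1 3 held 69.2 CPM and siYY1 1 and 2 held 789.8 and 804 CPM. The count of lower genes was 5 without siSQLE 3 and 5 without siYY1 1.

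Cytokines and chemokines followed the interferon genes in direction. Of 18 tested genes, 16 were lower and 1 was higher (median -0.87). CXCL6, a chemokine that attracts neutrophils, was at 6.29, 8.92 and 6.66 CPM in siSQLE and at 0.567, 0.701 and 0.767 CPM in siYY1 libraries, 10.8-fold lower (log2 fold change -3.44, SE 0.21, adjusted p = 4.18e-05), with a siNC mean of 6.16 CPM. Its neighbour CXCL1 was at 187, 237 and 218 CPM against 87.8, 79.9 and 84.4 CPM (-1.36, SE 0.09, adjusted p = 6.45e-05), and both groups lay above the siNC mean of 58.5 CPM. CSF3, or G-CSF, was at 201, 204 and 185 CPM against 107, 102.5 and 101 CPM (-0.94), again above the siNC mean of 88.2 CPM. CXCL1 and CSF3 were thus above siNC in both knockdowns, and CXCL6 was near the siNC level in siSQLE but not in siYY1 cells. IL1A was the higher gene, at 131, 138 and 132 CPM against 217, 219.9 and 225 CPM (0.71, adjusted p = 6.73e-05), with a siNC mean of 53.9 CPM. NF-kB factors and feedback genes were split, with 3 of 15 higher and 8 lower. PTGS2 (COX-2, -3.53), SOD2 (-1.26) and the feedback inhibitor TNFAIP3 (-0.57) fell, while the subunit genes REL (1.42) and NFKB1 (0.51) rose. The TNF-induced gene TNFAIP6 fell by 3.43 on the log2 scale from low levels of 1.27, 2.39 and 1.30 CPM, and by 4.12 without siYY1 3.

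CXCL6 (chr4:73836428-73836727) and CXCL1 (chr4:73869143-73869442), both on the plus strand, are shown with the NF-kB letters GGGA and TTTCC, with any base between them, in capitals, since the 2 promoters carry the same match.
CXCL6: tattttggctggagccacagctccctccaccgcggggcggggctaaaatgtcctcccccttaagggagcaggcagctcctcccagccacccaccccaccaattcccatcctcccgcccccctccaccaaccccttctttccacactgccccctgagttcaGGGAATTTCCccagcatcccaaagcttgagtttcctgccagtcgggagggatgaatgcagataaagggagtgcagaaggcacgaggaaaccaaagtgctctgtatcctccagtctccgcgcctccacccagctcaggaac
CXCL1: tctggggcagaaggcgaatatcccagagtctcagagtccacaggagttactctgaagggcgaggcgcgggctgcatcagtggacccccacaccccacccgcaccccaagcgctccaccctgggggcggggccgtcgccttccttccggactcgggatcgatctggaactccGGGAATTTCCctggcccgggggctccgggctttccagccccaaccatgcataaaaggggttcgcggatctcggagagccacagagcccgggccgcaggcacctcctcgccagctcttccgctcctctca
These letters stood in 11 of 26 promoters of the cytokine and NF-kB list (42.3%) and in 0.563% of all promoters. Promoters of NFKB1 and REL, which rose, and of TNFAIP3, which fell, hold them too. The median log2 fold change of these 26 genes was -0.81 with the letters and -0.47 without them, a difference that was not tested.

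**Figure D1:**
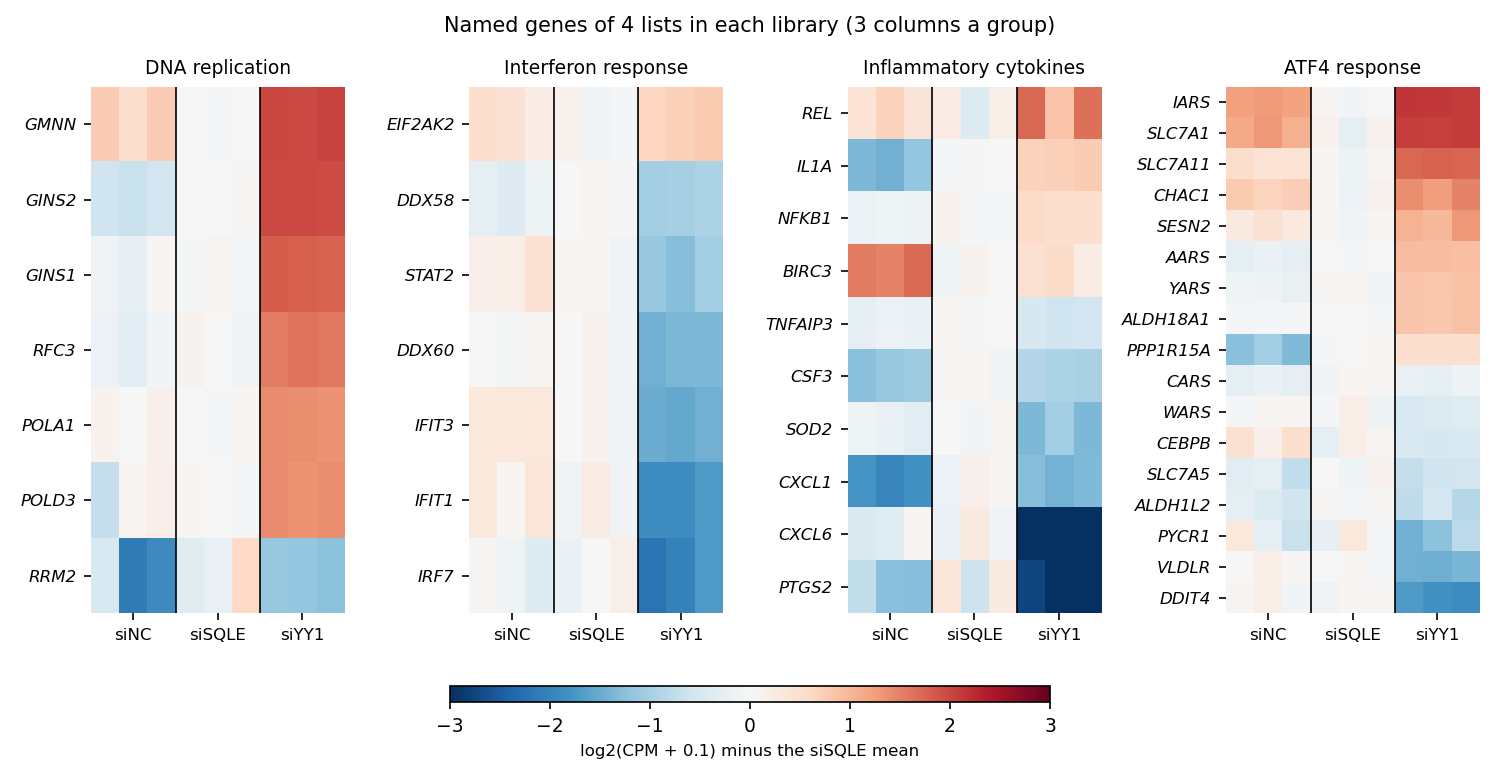
Log2(CPM + 0.1) minus the siSQLE mean (colour, red higher and blue lower, with values past 3 in either direction drawn at the end colour) of the named genes of 4 lists (rows) in each library (columns, 3 per group). Replication genes other than RRM2 are red in the 3 siYY1 libraries and pale in siNC, and interferon genes other than EIF2AK2 are blue in siYY1, whereas CXCL1 and CSF3 are blue in siNC too.

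Genes of the ATF4 response, which supplies amino acids and charged tRNAs under amino acid or endoplasmic reticulum stress, were higher on balance. Of 42 tested genes, 26 were higher and 10 lower (median 0.40). SLC7A1, the arginine and lysine transporter, was at 51.1, 38.8 and 50.6 CPM in siSQLE and at 195, 194 and 199 CPM in siYY1 libraries (log2 fold change 2.05, SE 0.11, adjusted p = 3.12e-05). SLC7A11, the cystine importer, was at 244, 212 and 248 CPM against 773, 797 and 780.2 CPM (1.72, SE 0.07, adjusted p = 1.34e-05). The siNC means, 105 and 320.2 CPM, lay between the groups for both transporters. PHGDH, the first enzyme of serine synthesis, rose by a smaller amount, at 64.6, 59.8 and 56.5 CPM against 107, 136.5 and 108 CPM (0.94), and so did the asparagine synthetase ASNS (0.68). Proline synthesis was split, with ALDH18A1 higher (0.83) and PYCR1, which makes the last step, lower (-1.16). ALDH1L2 (-0.75) and the leucine transporter SLC7A5 (-0.64) went down. Of 12 tRNA synthetase genes, 8 were higher and 2 lower, led by IARS at 149, 133 and 143 CPM against 628, 619.8 and 605 CPM (2.11, SE 0.06, adjusted p = 8.07e-06). AARS (0.90) and YARS (0.84) were higher, and WARS (-0.43) lower. The stress genes themselves were split, with 6 of 12 higher and 5 lower. CHAC1 (1.38), SESN2 (1.10) and PPP1R15A (0.48) were higher, whereas DDIT4, an inhibitor of mTORC1, was at 395, 439 and 437 CPM against 129.6, 119.6 and 114 CPM (-1.82, SE 0.07, adjusted p = 1.2e-05), and VLDLR (-1.45) was lower.

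The SLC7A1 promoter (chr13:29595639-29595938, minus strand) is shown with the amino acid response letters TGATGNAA in capitals, just past the annotated start.
SLC7A1: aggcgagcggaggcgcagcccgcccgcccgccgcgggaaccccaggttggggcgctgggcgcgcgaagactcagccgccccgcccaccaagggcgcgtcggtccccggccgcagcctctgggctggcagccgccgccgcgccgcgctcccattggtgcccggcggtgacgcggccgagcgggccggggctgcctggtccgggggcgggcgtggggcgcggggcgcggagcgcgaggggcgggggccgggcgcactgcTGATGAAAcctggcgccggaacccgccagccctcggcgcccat
These letters were in 5 of 24 promoters of the ATF4 list (20.8%) and in 1.76% of all promoters.

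Sterol synthesis genes other than SQLE were mostly lower in siYY1 than in siSQLE cells, by small amounts. Of 22 tested genes, 16 were lower and SQLE alone was higher (median -0.33). Up to farnesyl diphosphate and the GGPS1 step that extends it, 8 of 9 genes were lower. IDI1, the isomerase of the C5 units, was at 79.5, 97.0 and 119 CPM in siSQLE and at 43.5, 45.7 and 42.4 CPM in siYY1 libraries (log2 fold change -1.18, SE 0.14, adjusted p = 0.000585), and MVD was at 32.0, 46.9 and 50.4 CPM against 22.5, 23.3 and 21.9 CPM (-0.95). In both genes the siYY1 libraries were close to each other and the siSQLE libraries spread upward. HMGCS1 did not pass the test, since siSQLE 1 was at 158 CPM and siSQLE 2 and 3 at 95.5 and 95.3 CPM, around the siYY1 values of 136, 119 and 115 CPM, and it was called higher without siSQLE 1. ACAT2 (-0.24), MVK (-0.23), PMVK (-0.33) and GGPS1 (-0.78, on the same strand as TBCE) were lower. The sterol regulatory letters TCACNCCAC were also searched, and they stood in 0 of 17 promoters of sterol synthesis genes and in 1.16% of all promoters.

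From FDFT1, which makes squalene, to cholesterol, 8 of 13 genes were lower. LSS, the cyclase that makes lanosterol from the product of SQLE, was at 358, 302 and 340.3 CPM in siSQLE and at 138, 141 and 149 CPM in siYY1 libraries (log2 fold change -1.25, SE 0.08, adjusted p = 4.56e-05), and the siNC mean of 147 CPM was at the siYY1 level. SC5D, a late desaturase, was at 64.8, 70.4 and 66.4 CPM against 15.7, 7.04 and 17.4 CPM (-2.34, SE 0.32, adjusted p = 0.0011), and here the siNC mean of 46.6 CPM lay between. MSMO1 (-0.75), TM7SF2 (-0.81, on the same strand as VPS51), CYP51A1 (-0.45), HSD17B7 (-0.38), FDFT1 (-0.34) and LBR (-0.21) were lower. DHCR7, EBP and NSDHL did not pass the test, though EBP was called higher without siYY1 1 and NSDHL without siSQLE 2. The siNC mean was nearer to siSQLE for 4 of the 16 lower genes and nearer to siYY1 for 12, whereas it was nearer to siSQLE for 66.9% of all lower DEGs. Several of the smaller changes lay near the threshold and lost the call when a library was left out, though their size changed little. CYP51A1 was at -0.441, -0.436 and -0.445 without siYY1 1, 2 and 3. The count of 16 lower genes was 13 without siSQLE 3 and 12, 10 and 12 without siYY1 1, 2 and 3, and ACAT2, MVK, PMVK, CYP51A1, HSD17B7 and LBR were the named genes that lost the call in at least 1 of these fits.

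Genes that control or use sterols were split. SREBF1, which encodes SREBP1, was at 78.2, 85.5 and 99.5 CPM in siSQLE and at 49.2, 56.7 and 51.0 CPM in siYY1 libraries (log2 fold change -0.76, adjusted p = 0.00104). The ER retention gene INSIG2 (-0.80) and the protease gene MBTPS2 (-0.93, which contains YY2 on its strand) were lower, and the protease gene MBTPS1 (0.48) was higher. SREBF2, which encodes SREBP2, was at 344.5, 293 and 331 CPM against 282, 287.5 and 239 CPM (-0.28, adjusted p = 0.0479), and it kept its call without siSQLE 2 but lost it without any other of the 6 libraries, at adjusted p of 0.0667 to 0.15. INSIG1 did not pass the test. The cholesterol transfer gene STARD4 (-1.09) was lower, and the HDL receptor gene SCARB1 (0.50) was higher. In export and storage, the liver X receptor gene NR1H3 (-1.29) and its target ABCG1 (-1.92, from 0.932, 1.29 and 1.04 CPM) were lower, NR1H2 (0.75) and the esterifying enzyme gene SOAT1 (0.63) were higher, and ABCA1 did not pass the test (-0.20, adjusted p = 0.27) but was called lower without siSQLE 2 (-0.34, adjusted p = 0.0146).

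YY1 partners moved in both directions. Of 23 Polycomb genes, 9 were higher and 8 lower. CBX2, a reader of the Polycomb mark, was at 7.08, 5.70 and 6.46 CPM in siSQLE and at 24.6, 25.7 and 26.9 CPM in siYY1 libraries (log2 fold change 1.99, SE 0.11, adjusted p = 2.9e-05), and the groups did not overlap. The methyltransferase EZH2 (0.94) was higher and its core partner SUZ12 was lower, at 94.1, 92.7 and 95.6 CPM against 48.2, 50.6 and 49.5 CPM (-0.95, SE 0.05, adjusted p = 3.13e-05). HCFC1, which links YY1 to BAP1, was at 127, 101 and 121.5 CPM against 350.2, 359 and 388 CPM (1.63, SE 0.10, adjusted p = 4.02e-05), while OGT, the glycosyltransferase that cleaves and modifies HCFC1, was at 641, 541 and 615 CPM against 221, 232 and 222 CPM (-1.43, SE 0.07, adjusted p = 2.63e-05). BAP1 (0.71) and CTCF (0.37) were higher. The INO80 complex had 5 of 13 genes higher, among them RUVBL1 (0.64) and INO80 (0.44), and ACTR8 lower (-0.38). The siNC mean was nearer to siSQLE for 15 of the 18 higher and 10 of the 11 lower partner genes. YY2, a retrogene copy of YY1, was at 8.18, 8.59 and 8.48 CPM against 8.13, 8.66 and 8.78 CPM and did not pass the test (adjusted p = 0.988), though its reads cannot be separated from MBTPS2, which contains it. The count of 11 lower partner genes was 6 without siYY1 2 and 7 without siYY1 3.

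Ribosomal and respiratory genes, whose promoters often hold YY1 letters, changed by small amounts. Of 82 mitochondrial ribosomal protein genes, 39 were higher and 9 lower (median 0.27). MRPS35 was at 26.6, 33.4 and 26.6 CPM in siSQLE and at 118, 109.5 and 107 CPM in siYY1 libraries (log2 fold change 1.93, SE 0.11, adjusted p = 3.09e-05), and the siNC mean of 87.1 CPM was near to siYY1. MRPL17 (1.35), MRPL14 (0.90), MRPL37 (0.76) and PTCD3 (0.74) were higher. Of 77 nuclear respiratory chain genes, 27 were higher and 10 lower (median 0.17). The ATP synthase subunit gene ATP5MC1 was at 38.1, 38.5 and 38.7 CPM against 96.0, 101 and 96.3 CPM (1.33, SE 0.05, adjusted p = 1.26e-05). NDUFA9, a complex I subunit, was at 66.9, 76.2 and 70.0 CPM against 119.2, 116 and 115 CPM (0.70), and the cytochrome oxidase subunit gene COX8A was at 64.3, 91.8 and 136 CPM against 32.5, 31.0 and 33.6 CPM (-1.61, adjusted p = 0.00209). Of 79 cytosolic ribosomal protein genes, 36 were higher and 1 lower (median 0.21), against 24.1% higher and 24.3% lower among all tested genes, and the siNC mean was nearer to siYY1 for 26 of the 36. The 13 genes of the mitochondrial genome had 3 higher and 1 lower. Their 3 higher genes were 7 without siSQLE 2, 6 with all 12 libraries in one fit, and 1 without siYY1 1, without siYY1 3 or with upper-quartile scaling. Counts in these lists also changed when a library was left out, as many of the changes were small and near the threshold. Higher cytosolic ribosomal protein genes numbered 60 without siSQLE 2 and 21 without siYY1 2, higher respiratory chain genes 38 without siSQLE 2 and 17 without siSQLE 3, and lower mitochondrial ribosomal protein genes 4 without siSQLE 2 and 1, 2 and 1 without siYY1 1, 2 and 3. With upper-quartile scaling, 21 cytosolic ribosomal protein genes and 15 respiratory chain genes were higher.

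The promoters of MRPS35 (chr12:27710582-27710881) and NDUFA9 (chr12:4648864-4649163), both on the plus strand, are shown because each holds the extended YY1 letters ATGGCGGC just past its start. Capitals mark these letters and, where it overlaps them in NDUFA9, the core AANATGG.
MRPS35: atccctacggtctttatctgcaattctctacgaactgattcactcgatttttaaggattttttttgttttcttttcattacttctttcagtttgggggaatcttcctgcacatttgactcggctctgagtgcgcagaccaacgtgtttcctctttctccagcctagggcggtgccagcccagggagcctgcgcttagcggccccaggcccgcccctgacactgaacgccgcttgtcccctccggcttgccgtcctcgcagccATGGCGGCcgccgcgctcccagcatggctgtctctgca
NDUFA9: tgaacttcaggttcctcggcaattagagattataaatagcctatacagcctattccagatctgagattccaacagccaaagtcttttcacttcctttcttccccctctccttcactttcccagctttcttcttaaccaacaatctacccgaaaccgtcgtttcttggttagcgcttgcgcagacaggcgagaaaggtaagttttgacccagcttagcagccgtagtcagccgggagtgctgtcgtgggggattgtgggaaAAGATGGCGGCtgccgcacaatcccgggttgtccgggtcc
The core AANATGG, on either strand, was in 30 of 63 promoters of respiratory chain genes (47.6%), 30 of 73 of mitochondrial ribosomal protein genes (41.1%) and 17 of 63 of cytosolic ribosomal protein genes (27.0%), against 15.3% of all promoters. It stood in 16.5% of promoters of higher DEGs, 14.5% of lower DEGs and 15.1% of genes that were not called. The median log2 fold change over all tested genes was 0.075 with the core and -0.001 without it, and over mitochondrial ribosomal protein genes it was 0.32 with the core and 0.28 without it. For the extended letters ATGGCGGC, which 19 of 73 promoters of mitochondrial ribosomal protein genes held, the medians of these genes were 0.44 with and 0.21 without. Respiratory chain genes went the other way, with 12 of 63 promoters holding them and medians of 0.12 with and 0.19 without. In cytosolic ribosomal protein genes, 5 of 63 held them, with medians of 0.33 and 0.19. The extended letters stood in 4.41% of promoters of genes at least 2-fold higher, 3.5% of those at least 2-fold lower and 5.86% of all promoters. These differences were not tested.

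Extracellular matrix and adhesion genes were lower on balance, with 36 of 68 lower and 10 higher (median -0.51). THBS2, a matricellular thrombospondin, was at 152.5, 136 and 142 CPM in siSQLE and at 21.8, 21.1 and 19.7 CPM in siYY1 libraries (log2 fold change -2.80, SE 0.08, adjusted p = 7.1e-06). The siNC mean of 13.1 CPM was near to siYY1. Integrins, the receptors for this matrix, had 9 of 16 lower and 2 higher. ITGAV (alpha V) was at 297, 301 and 279.5 CPM against 92.8, 91.0 and 94.7 CPM (-1.67, SE 0.06, adjusted p = 8.83e-06), ITGA7 at 20.3, 18.7 and 20.02 CPM against 3.80, 3.76 and 3.83 CPM (-2.39), and ITGB8 at 77.6, 79.3 and 77.8 CPM against 18.4, 21.2 and 22.3 CPM (-1.94). In these 3 the siNC means of 328, 19.1 and 65.4 CPM were near to siSQLE. ITGB1, the common beta chain, was at 1028, 1073 and 1044 CPM against 926, 925 and 877 CPM (-0.22, adjusted p = 0.00809, and 0.0564 without siYY1 3), and ITGB3 did not pass the test (-0.13), being at 14 to 16.8 CPM in the 6 libraries against a siNC mean of 75.7 CPM. ITGB5 (0.32) and ITGA2 (1.26, with 213, 67.5 and 106 CPM in siSQLE) were higher, and ITGA2 lost the call without siSQLE 3 and without siYY1 1, 2 or 3 (adjusted p 0.0665 to 0.1). SPARC (-0.97), COL6A2 (-0.94), LAMB2 (-1.32) and the protease inhibitor TIMP3 (-1.17) were lower, and the basement membrane collagen COL4A1 (0.68) and the protease gene PLAU (0.37) were higher.

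Junction and mesenchymal genes fell in part. CDH2 (N-cadherin) was at 222, 230.1 and 229 CPM in siSQLE and at 86.0, 84.1 and 80.1 CPM in siYY1 libraries (log2 fold change -1.46, SE 0.05, adjusted p = 9.52e-06), and DSC2, a desmosomal cadherin, at 40.3, 44.2 and 43.5 CPM against 7.38, 8.29 and 7.31 CPM (-2.49, SE 0.09, adjusted p = 8.83e-06). Both had siNC means near to siSQLE, at 215 and 34.4 CPM. Of 12 mesenchymal genes, 7 were lower and 2 higher, and of 14 epithelial genes, 5 were lower and 4 higher. The 6 higher genes of both kinds together were 3 without siYY1 2 and 3 without siYY1 3. The receptor kinase gene AXL was higher, at 111, 96.8 and 111 CPM against 253, 249 and 251 CPM (1.22), both below the siNC mean of 425 CPM. Vimentin (VIM, -0.17, adjusted p = 0.0525, and 0.0285 without siSQLE 3) and SNAI2 (-0.30, adjusted p = 0.379, and -0.56 with adjusted p = 0.00582 without siSQLE 1) did not pass the test, and CDH1 was too low to be tested. RHOB, a small GTPase of endosomes and stress fibres, was at 44.1, 54.5 and 46.5 CPM against 32.6, 31.3 and 30.8 CPM (-0.63, adjusted p = 0.00152), and the siNC mean was 97.9 CPM. Among 10 prenylation genes, 2 were lower, including the Rab escort gene CHM (-1.07), and the CAAX protease gene RCE1 (0.78) was higher.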

How the data were processed

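The authors made the libraries with a stranded mRNA kit that adds identifiers of 8 random bases. The submitters' processing notes name Trimmomatic 0.36, STAR 2.5.3, featureCounts, Subread 1.5.1 and GRCh38, without their order or the counting settings. The deposited values were raw read counts for 206601 transcripts, 99.98% of which had the coordinates of GENCODE 29. Here they were summed to 58735 genes, 21712 of them without a count in the 6 libraries. Whether duplicates were removed by identifier and how reads shared by transcripts or strands were counted is not given in the sources used here.

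The siYY1 and siSQLE libraries were compared with the edgeR (4.0.16) quasi-likelihood test after filtering of low counts (filterByExpr) and TMM scaling, in R 4.3.3. TMM factors were 1.002 to 1.013 in siSQLE and 0.959 to 0.965 in siYY1 libraries. DEGs had a Benjamini-Hochberg adjusted p below 0.05. DESeq2 (1.42.0), the tool named by the study, was an alternative. In data simulated from these libraries, 200 of 18470 genes were changed, and edgeR recovered 51% of 2-fold and 92% of 4-fold changes with 18 false calls. That share of changed genes was far below the 48.4% called here, so the recoveries do not measure sensitivity in this comparison.

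The members and the 25 gene lists (968 genes) were chosen with earlier results of these data known, and the motifs were likewise chosen with them in view, so lists are described by counts and medians alone. Named genes were the targets, FDPS, the 10 protein-coding DEGs with the largest rises and falls (mean of at least 5 CPM, no overlap), up to 3 genes per list role and direction with the smallest adjusted p, each sterol synthesis and SREBP control gene, YY1 paralogues and genes the study discusses. ORC4, B2M and MYC were named after their values were seen. Some genes that this rule selects are not reported here. Nearness of the siNC mean was taken on log2(CPM + 0.1). Alternatives were other scalings, filters, DESeq2, all 12 libraries in one fit, a replicate block, a 2-fold minimum, transcripts in place of genes and leaving out each library.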

Additional observations from a re-analysis of the deposited data

How the results depend on the processing

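YY1 was lower and SQLE higher, past the threshold, under every alternative run for them, with log2 fold changes of -2.62 to -2.75 and 2.11 to 2.25. The 9194 DEGs (4578 higher, 4616 lower) numbered 9151 with DESeq2 (4745 and 4406), 9239 with upper-quartile scaling (3816 and 5423), 9197 with RLE scaling, 8129 without a filter, 8352 with a minimum of 1 CPM in 3 libraries and 9590 with all 12 libraries in one fit. Leaving out each library in turn gave 7709 to 9206 DEGs, with 3869 to 4742 higher and 3805 to 4464 lower. Counts moved further with a minimum of 2-fold (3257 DEGs, 1213 higher and 2044 lower) and with transcripts in place of genes (3702 DEGs, 1772 higher and 1930 lower), since both settings apply a further demand or split each gene's counts. Same-numbered libraries showed no shared deviation, at correlations of -0.004, -0.013 and 0.011. Whether they came from the same experiment is not known from these values. A replicate block gave 8288 DEGs (4172 higher and 4116 lower). Of the named genes other than YY1 and SQLE, none turned its direction as a called gene and 1 to 29 lost the call, depending on the setting. Of 50 list counts, 0 to 7 moved by more than 1.5 times. At this depth low counts limit few named genes, and the spread between 3 libraries limits small changes. The recovery of 51% of 2-fold changes came from simulated data with only 200 changed genes and does not measure sensitivity here.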

Other observations

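Lysosomal genes were lower on balance, with 30 of 62 tested genes lower and 11 higher in siYY1 against siSQLE cells (median log2 fold change -0.24). ATP6V1A, the catalytic subunit of the proton pump, was at 112, 115.5 and 117 CPM in siSQLE and at 37.4, 37.4 and 39.7 CPM in siYY1 libraries (-1.61, SE 0.06, adjusted p = 9.14e-06, edgeR). GPNMB (-2.23), a membrane glycoprotein raised in lysosomal stress, and the proteases CTSK (-1.72) and CTSD (-0.74) were lower, while the glycosidase gene GLA (1.01) was higher. The siNC mean lay near to siYY1 for GPNMB, at a low level of 0.754 CPM, and above both groups for ATP6V1A, at 145 CPM. Glycolysis genes had 11 of 21 lower and 4 higher (median -0.33). The lactate exporter gene SLC16A3 was at 627, 659.9 and 705 CPM against 313, 305 and 308 CPM (-1.12, SE 0.06, adjusted p = 2.4e-05), whereas the glucose transporter gene SLC2A1 was at 80.6, 70.0 and 72.3 CPM against 128, 132 and 133 CPM (0.80, adjusted p = 0.000162). In neither gene did the groups overlap.

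Fatty acid genes were split, with 3 of 12 higher and 4 lower, and the 4 lower genes were 2 without siSQLE 3 and 2 without siYY1 1, 2 or 3. ACACA, the first enzyme of fatty acid synthesis, was at 172, 136 and 176 CPM in siSQLE and at 262, 248 and 256 CPM in siYY1 libraries (0.64, adjusted p = 0.00222), and the desaturase FADS2, which shares its strand with FEN1, fell by 1.04. Of 24 genes of the unfolded protein response, 7 were lower and 2 higher. The chaperone gene HSPA5 was at 1216, 1405 and 1286 CPM against 909.8, 889 and 860.3 CPM (-0.57, adjusted p = 0.000477), and its siNC mean of 997 CPM lay between, whereas the sensor gene ERN1 rose by 1.10. Higher genes of this list numbered 6 without siSQLE 2 and 1 without siYY1 1. TGF-beta genes had 9 of 24 lower and 2 higher, led by the BMP antagonist NOG at 28.9, 46.3 and 42.4 CPM against 6.47, 5.19 and 5.67 CPM (-2.78) and TGFBR3 (-1.93). YAP targets had 4 of 15 higher and 5 lower. Of 14 urothelial and keratin markers, 8 were lower and 2 higher, including KRT19 at 42.2, 42.3 and 43.7 CPM against 12.2, 12.8 and 13.2 CPM (-1.76, SE 0.07, adjusted p = 1.14e-05) and KRT8 (-0.86). Immediate early genes were split, with 7 of 21 higher and 5 lower. FOSL1 (1.73) and the ERK phosphatase gene DUSP5 (1.64) rose, DUSP1 (-0.98) fell, and MYC did not pass the test, being at 3.23 to 4.30 CPM in the 6 libraries against a siNC mean of 29.9 CPM. The 7 higher genes were 4 without siSQLE 1 and 4 without siYY1 1, 2 or 3.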
